A study of Arabidopsis thaliana with 4 samples.

Results

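A small population of root cells, almost all of them from lbd_quad plants, shared transcripts of at least 4 of 6 genes that encode a glycine-rich protein, lipid transfer proteins, a pectin methylesterase, a peroxidase and a calcium-binding protein. The 6 genes were GRP5 (AT3G20470), LTP2 (AT2G38530), ATPMEPCRB (AT4G02330), AT5G39580, LTPG1 (AT1G27950) and AT3G29000. A cell was taken when at least 4 of the 6 had a deposited value above 0. This rule took 193 of 10529 cells, which was 1.83%. It is called the 4-of-6 rule below, and its genes are called the rule genes. The rule genes had themselves been picked because they were high in the mutant, so the number of cells per genotype and the levels of these genes describe the choice and were not tested.

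The cells came from root tips of 7-day-old Arabidopsis thaliana seedlings, collected 16 h after the tip was excised, an injury from which roots are able to regenerate. The quadruple mutant lbd6 lbd36 lbd12 lbd15, called lbd_quad, was set against the wild type (WT). Both genotypes had been cut, and no uncut roots were among the samples. Walls were digested to free protoplasts, cells without walls, and each genotype had 2 droplet libraries in which transcripts were counted by unique molecular identifiers (UMIs). The labels do not say how the mutant alleles were made, whether more than 1 line was used, or whether the libraries came from separate sets of plants.

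LATERAL ORGAN BOUNDARIES DOMAIN (LBD) proteins are plant transcription factors, and several of them act in lateral root formation and in the response of roots to auxin. Lipid transfer proteins are small secreted proteins that bind lipids, and LTPG1 is held at the cell surface by a lipid anchor and takes part in wax export to the cuticle in stems. Glycine-rich proteins are found in cell walls, pectin methylesterases remove methyl groups from wall pectin, and secreted peroxidases oxidise wall phenolics and take part in defence. Proteins with EF-hand domains, such as the product of AT3G29000, bind calcium.

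The libraries differed in size and depth. They held 846 and 2876 cells from lbd_quad and 1746 and 5061 cells from WT, with 7073293 to 21280667 UMIs per library. Median UMIs per cell were 6364 and 2522 in lbd_quad replicates 1 and 2, against 2444 and 2090 in WT replicates 1 and 2. LBD12, the most abundant of the targeted genes, averaged 0.349 and 0.141 UMIs per 10000 UMIs of the cell in lbd_quad cells outside the rule and 2.55 and 1.27 in all WT cells, so the library labels and this gene went together. The other targeted genes were low in both genotypes and not lower throughout in the mutant: LBD6 averaged 0.00262 and 0.00409, against 0.00383 and 0.00576, LBD36 0.0210 and 0.0240, against 0.0147 and 0.0214, and LBD15 0.0515 and 0.0523, against 0.0426 and 0.0747. In all, 9 cell barcodes occurred in 2 libraries, and 2 cells meeting the rule carried such a barcode. A doublet caller marked 2 of all cells (0.019%), too few for its calls to be relied on, and neither of the marked cells met the rule.

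The rule took 55 of 846 cells in lbd_quad replicate 1 (6.50%, exact 95% binomial interval 4.94 to 8.38) and 136 of 2876 cells in lbd_quad replicate 2 (4.73%, interval 3.98 to 5.57). It took 1 of 1746 cells in WT replicate 1 (0.0573%, interval 0.00145 to 0.319) and 1 of 5061 cells in WT replicate 2 (0.0198%, interval 0.0005 to 0.11). These intervals cover counting error only. The shares averaged 5.61% ± 1.25 in lbd_quad and 0.0385% ± 0.0265 in WT (SD, n = 2 each), and 191 of the 193 cells (99.0%) came from lbd_quad.

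Cells meeting the rule were deep. Their median was 9903 and 10054 UMIs in lbd_quad replicates 1 and 2, against 6252 and 2381 UMIs in the other cells of the same libraries. The single WT cells had 6291 and 3457 UMIs, against medians of 2442 and 2089 in the other WT cells. A deeper cell is more likely to show at least 1 UMI of 4 genes, so each cell was also thinned to 2000 UMIs by random draws, leaving out cells with fewer. At that depth 1.94% and 2.72% of lbd_quad cells met the rule, against 0% and 0.0231% of WT cells, as means over 20 draws. Thinning left out 29 and 1272 lbd_quad cells and 660 and 2466 WT cells. The same cells unthinned gave 6.49% and 7.61% in lbd_quad, against 0.0921% and 0.0385% in WT. The share thus depended on depth while both lbd_quad libraries stayed above both WT libraries.

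**Figure D1:**
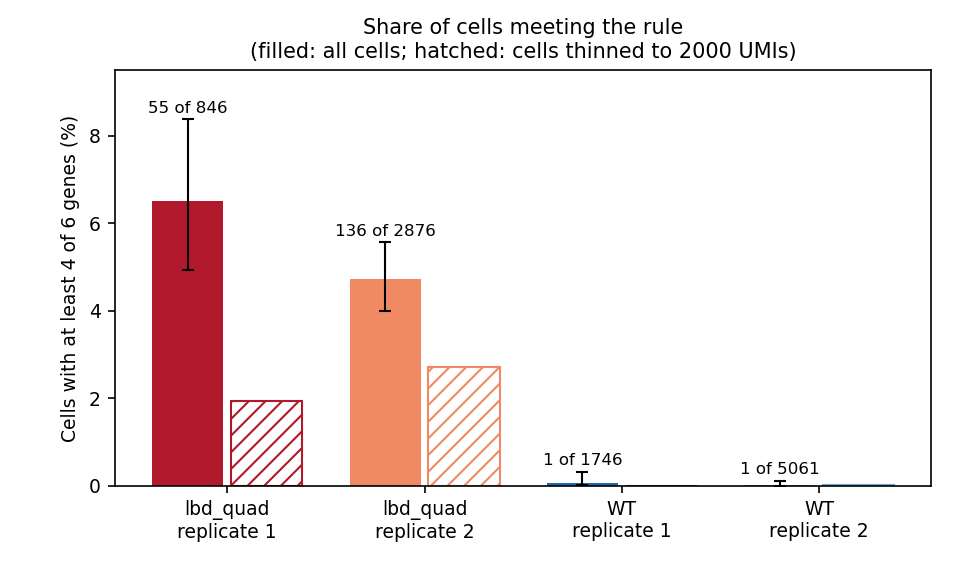
Percentage of cells meeting the 4-of-6 rule in each library (y axis), in all cells (filled bars, with exact 95% binomial intervals and the number of cells) and after thinning to 2000 UMIs per cell (hatched bars, mean over 20 draws). The lbd_quad libraries are at 6.50% and 4.73% before thinning and at 1.94% and 2.72% after it, and both WT libraries are below 0.1%.

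The number of rule genes per cell fell off gradually in lbd_quad. In lbd_quad replicate 2, 1786 cells had none of the 6 genes, 565 had 1, 257 had 2, 132 had 3, 70 had 4, 46 had 5 and 20 had all 6. In lbd_quad replicate 1, 30 cells had 4, 21 had 5 and 4 had all 6. No WT cell had more than 4, and 12 and 10 WT cells had 3. There was no gap in these numbers at the threshold. Cells with 3 genes, just outside the rule, averaged 4.98 and 9.04 UMIs of GRP5 per 10000 in lbd_quad replicates 1 and 2, and cells with 4 genes, just inside it, averaged 8.06 and 16.5. For LTPG1, the cells just inside averaged 4.12 and 6.86 UMIs per 10000, and those just outside averaged 1.56 and 3.91. Median depth just inside the rule was 9494 and 10491 UMIs, against 6220 and 7080 just outside.

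The lipid-related rule genes were LTP2 and the anchored LTPG1. LTP2 averaged 12.05 and 9.33 UMIs per 10000 in the cells meeting the rule of lbd_quad replicates 1 and 2, against 0.932 and 0.541 in the other cells of these libraries. LTPG1 averaged 4.38 and 9.31, against 0.432 and 0.545. LTPG1 was the rule gene that most of these cells shared: it was found in 85.5% and 96.3% of them, and 13 of the 191 lbd_quad cells (6.81%) lacked it. LTP2 was lacking in 33 cells (17.3%).

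Among the rule genes, GRP5 had the fewest UMIs in WT. It averaged 9.93 and 21.5 UMIs per 10000 in the cells meeting the rule of lbd_quad replicates 1 and 2, against 0.694 and 0.778 in the other cells. WT replicate 1 held 3 UMIs of GRP5 in all, and WT replicate 2 held 0. The 2 WT cells that met the rule held 0 GRP5 UMIs. The rule did not demand GRP5, and 57 of the 191 lbd_quad cells (29.8%) met it without a GRP5 UMI at a median depth of 12068 UMIs. The cells meeting the rule held 65.3% and 64.3% of all GRP5 UMIs of their libraries, and the rest lay in other cells. To gauge free RNA, cells carrying markers of other types and not meeting the rule were read. Because cells meeting the rule were left out of them, low detection there was partly set by the choice. GRP5 was found in 0% of the 3 and 42 lbd_quad cells with at least 3 xylem markers, at medians of 11170 and 11608 UMIs. It was found in 1.52% of the 66 cells with at least 3 phloem markers in replicate 2, at a median of 5829 UMIs, and in 72.7% and 69.1% of the cells meeting the rule. The other rule genes were not all as rare in such cells. In lbd_quad replicate 1, AT5G39580 was found in 33.3% of the 3 xylem-marker cells and 17.6% of the 17 phloem-marker cells. AT3G29000 was found in 33.3% and 29.4% of them. In lbd_quad replicate 2 both genes were found in at most 3.03% of such cells.

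A few cells carried much of each transcript. The 5 highest of the 55 cells in lbd_quad replicate 1 held 63.6% of the GRP5 UMIs of the cells meeting the rule, and the highest cell had 182 UMIs against a median of 2. In lbd_quad replicate 2, the 5 highest of 136 cells held 30.4%, with a highest cell of 175 UMIs and a median of 3. LTP2 was spread as unevenly, the 5 highest cells holding 67.8% and 34.8% of its UMIs. LTPG1 was spread more evenly, at 38.3% and 17.7%. AT5G39580, ATPMEPCRB and AT3G29000 lay between, at 58.5% and 27.5%, 50.8% and 21.2%, and 41.02% and 17.8%. In replicate 1 the means over the 55 cells thus rest in large part on 5 cells for each rule gene.

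The wall and calcium genes of the rule were also present outside the selected cells. ATPMEPCRB averaged 2.35 and 4.53 UMIs per 10000 in the cells meeting the rule, against 0.286 and 0.738 in the other lbd_quad cells. The peroxidase gene AT5G39580 averaged 9.44 and 8.58, against 2.07 and 1.74. The calcium-binding gene AT3G29000 averaged 5.52 and 3.48, against 1.53 and 0.702. The cells meeting the rule held 26.8% and 32.8% of the AT5G39580 UMIs and 22.7% and 37.9% of the AT3G29000 UMIs of their libraries, so most of both transcripts lay elsewhere. In the single WT cells that met the rule, ATPMEPCRB stood at 3.18 and 34.7 UMIs per 10000, and the 34.7 rests on 12 UMIs of 1 cell.

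**Figure D2:**
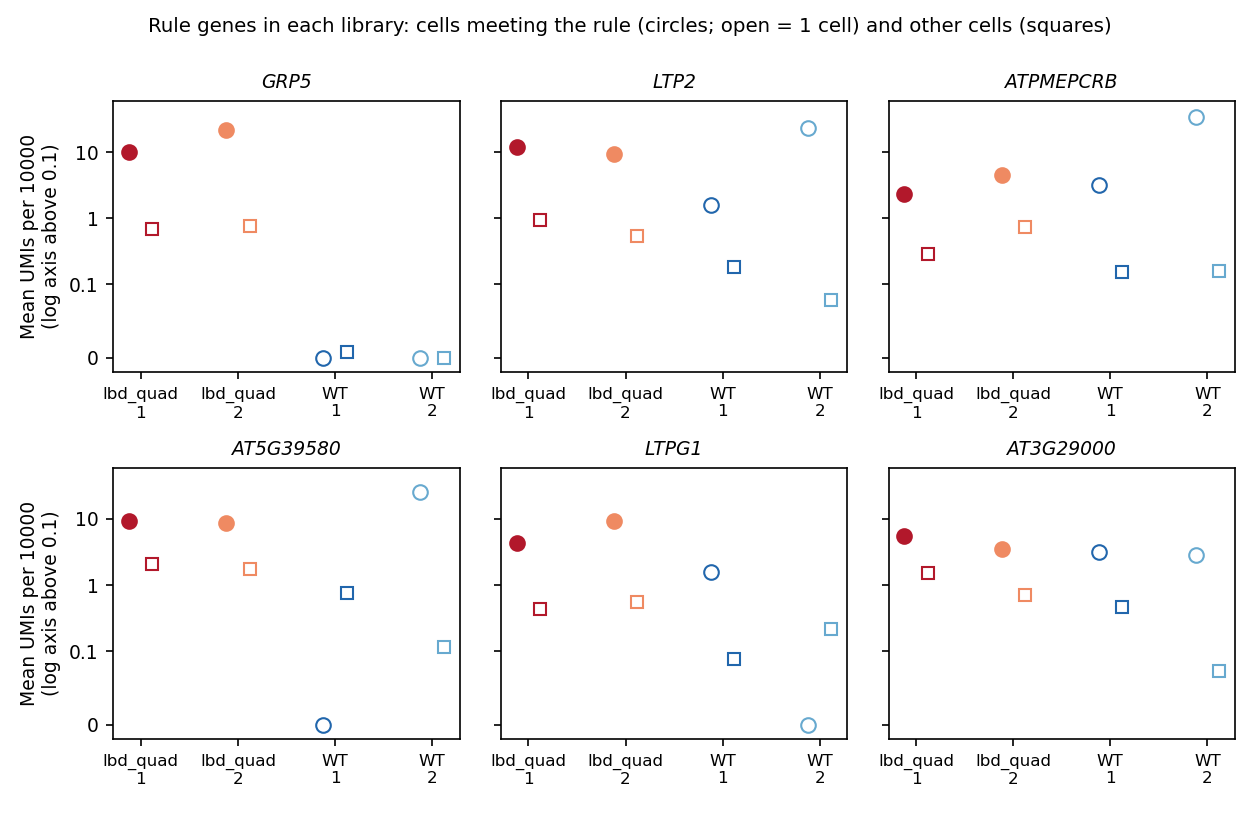
Mean UMIs per 10000 of each rule gene (y axis, log above 0.1) in each library, in cells meeting the rule (circles, open where there is 1 cell) and in the other cells (squares). In both lbd_quad libraries each of the 6 genes is higher in the cells meeting the rule, which the rule requires, and GRP5 is at 0 in the WT cells meeting it.

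The cells were then checked against markers of root cell types. No class was reached, and the cells are therefore called by their rule genes. Ratios were taken with 0.1 UMIs per 10000 added to both means. Of 79 markers measured in 10 classes, 0 were then at least 2-fold higher in the cells meeting the rule in both lbd_quad libraries. Over all genes this share was 0.453%. By the plain means, SMB and PLT3, both given below, were more than 2-fold higher in both libraries. Xylem markers were nearly absent: the 11 genes summed to 0 and 0.0124 UMIs per 10000 in the cells meeting the rule of lbd_quad replicates 1 and 2, against 3.30 and 7.06 in the other cells. Phloem markers summed to 0.0135 and 0.00841, against 1.19 and 2.19. Root cap markers summed to 0.644 and 0.641, against 10.9 and 4.98, with the nucleases BFN1 and RNS3 at 0. The root cap regulator SMB went the other way, at 0.0738 and 0.198, against 0.0187 and 0.0229, and was found in 7.27% and 12.5% of the selected cells.

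Root hair markers were low in both populations, at 0.0650 and 0.0535 UMIs per 10000 in the cells meeting the rule and 0.147 and 0.344 in the other cells. The 5 non-hair epidermis genes were at similar sums, mostly through the auxin transporter gene ABCB4. They summed to 0.924 and 1.56 in the cells meeting the rule and 0.806 and 1.24 in the other cells. GL2 averaged 0.0405 and 0.1475, against 0.0479 and 0.0624. WER averaged 0.0761 and 0.194, against 0.0574 and 0.0583, and MYB23 0.0527 and 0.178, against 0.0577 and 0.117. In replicate 2 these 3 genes were found in 14.7% to 16.2% of the selected cells and 1.79% to 3.76% of the shallower other cells. Cortex markers summed to 0.313 and 0.0259, against 0.660 and 0.676. Pericycle markers summed to 0.0273 and 0, against 0.138 and 0.558. Stem cell niche markers summed to 0.350 and 0.229, against 0.223 and 0.456. In this list PLT3 stood at 0.244 and 0.204, against 0.0652 and 0.0937. Of the genes known from cells over lateral root primordia, the auxin importer gene LAX3 was at 0 and 0, against 1.10 and 1.16 in the other cells, and the 7 genes summed to 0.168 and 0.178, against 1.87 and 2.30.

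Endodermis markers differed between the libraries. The 9 genes summed to 0.0217 UMIs per 10000 in the cells meeting the rule of lbd_quad replicate 1, against 9.85 in the other cells. In lbd_quad replicate 2 they summed to 6.16, against 6.95. That level came from few cells: the Casparian strip genes CASP1 and ESB1 were each found in 2.94% of the 136 cells, at means of 1.73 and 2.62 UMIs per 10000. A minority of the cells taken by the rule in that library thus carried endodermal transcripts, and their part in the other results was not tested.

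**Figure D3:**
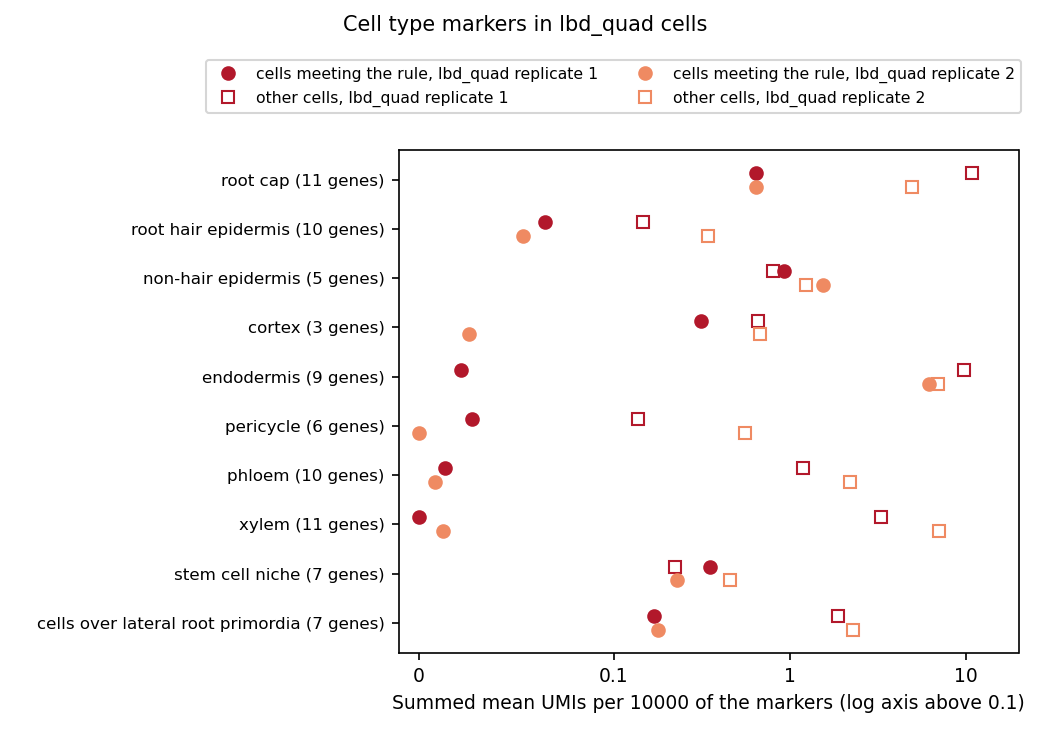
Summed mean UMIs per 10000 of the markers of 10 root cell classes (x axis, log above 0.1) in lbd_quad cells meeting the rule (filled circles) and in the other lbd_quad cells (open squares), by library. The sums lie below those of the other cells for root cap, phloem and xylem in both libraries, while the endodermis sum of replicate 2 is 6.16 against 6.95.

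Cells were clustered with the rule genes left out, to see whether the selected cells still lay together. Most did. At Leiden resolution 1, 144 of the 193 cells (74.6%) fell in 1 of 30 clusters, and the remaining 49 cells were spread over 10 others. The main cluster held 660 cells, of which 235 and 396 came from lbd_quad replicates 1 and 2 (27.8% and 13.8% of the library) and 26 and 3 from WT replicates 1 and 2 (1.49% and 0.0593%). Its cells therefore came largely from the mutant also where they did not meet the rule: 197 and 290 lbd_quad cells of the cluster did not. These had a median of 3997 UMIs, against 9532 in the cells of the cluster that met it. Since the genes that define a cluster can differ between genotypes, its size was not compared.

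The main cluster was led by GPAT3, which encodes a glycerol-3-phosphate acyltransferase, the chitinase gene AT2G43610, the arabinogalactan protein gene AGP31, AT4G24340 and the pectin methylesterase family gene AT3G10720. GPAT3 averaged 7.09 UMIs per 10000 in the lbd_quad cells of the cluster, against 0.829 in the other lbd_quad cells. AT2G43610 averaged 68.2, against 8.88. With 0.1 added to both means, no marker of the 10 classes was at least 2-fold higher in these lbd_quad cells of the cluster. The cluster too was therefore given no cell type name. Of the cells meeting the rule, 17 lay in a cluster led by AT3G04010 and the glycosyltransferase gene UGT85A1, 10 in a cluster led by AT5G16250 and ENODL15, of which 8 were from lbd_quad replicate 1, and 9 in a cluster led by histone genes. The 2 WT cells lay in 2 clusters other than the main one.

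Rule genes were also found in the lbd_quad cells of the main cluster that did not meet the rule, where the rule itself keeps their number per cell low. GRP5 was found in 9.14% and 7.93% of these cells and LTP2 in 21.3% and 10.0%. AT5G39580 was found in 52.8% and 41.03%, and ATPMEPCRB in 18.3% and 43.1%. In the 26 and 3 WT cells of the cluster, GRP5 and LTP2 stood at 0. AT5G39580 averaged 0.573 and 0.869 UMIs per 10000 in these WT cells, ATPMEPCRB 0.182 and 2.49, LTPG1 0.0278 and 0, and AT3G29000 0.441 and 0.

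Beyond the rule genes, single genes of pectin modification, chitinases and other families were higher in the cells meeting the rule, while more genes were lower than higher. Of 20511 genes, 93 (0.453%) were at least 2-fold higher in these cells in both lbd_quad libraries, the 6 rule genes among them, and 583 (2.84%) were at least 2-fold lower. Ratios are taken of the mean UMIs per 10000 with 0.1 added to both sides, which understates the change of low genes. The median ratio over all genes was -0.07 and -0.09 on the log2 scale in the 2 libraries. All of these comparisons are descriptions without a test, because the same cells were chosen by their transcripts. The 20 genes with the highest ratios among those found in at least 25% of the selected cells are called the leading genes here.

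The leading genes included wall enzymes. AT3G10720, a pectin methylesterase family gene, averaged 13.1 and 26.4 UMIs per 10000 in the cells meeting the rule of lbd_quad replicates 1 and 2, against 3.77 and 5.41 in the other cells. AT5G45280, annotated as an enzyme that removes acetyl groups from pectin, averaged 12.9 and 28.7, against 5.10 and 9.69. The family members AT1G02810 and AT5G51500 averaged 3.57 and 3.32, and 0.884 and 1.55, against 1.02 and 1.09, and 0.242 in both libraries. EXO, a gene that responds to brassinosteroids in leaf growth, averaged 2.57 and 2.86, against 0.673 and 0.511. The touch-inducible xyloglucan endotransglucosylase gene TCH4, also called XTH22, was not among the leading genes but averaged 8.29 and 15.0, against 3.41 and 4.61.

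The dehydrin family gene AT4G38410 had the highest ratio of the leading genes, at 2.52 and 3.48 UMIs per 10000 in the cells meeting the rule, against 0.275 and 0.686 in the other cells (log2 ratios 2.80 and 2.19). The chitinase genes AT2G43620 and AT1G56680 averaged 2.22 and 2.48, and 2.29 and 3.20, against 0.595 and 0.561, and 0.692 and 0.866. TI1, which encodes a trypsin inhibitor, averaged 3.35 and 0.947, against 0.483 and 0.234. Chitinases and trypsin inhibitors are known from responses to pathogens or feeding. The glutathione transferase gene GSTF2 averaged 2.95 and 1.07, against 0.545 and 0.205, and the peroxidase gene AT5G64120 averaged 1.20 and 0.884, against 0.276 and 0.157. RNS1, a secreted ribonuclease induced by wounding, averaged 5.33 and 3.83, against 1.61 and 1.42.

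The other leading genes were AT4G15630, AT1G21010, AT5G40590, LOX3, CYP705A2, AT1G54890, CXE12 and AT2G39210. AT4G15630, of a family annotated as uncharacterised, averaged 3.96 and 2.91 UMIs per 10000 in the cells meeting the rule, against 0.667 and 0.759 in the other cells. LOX3, a lipoxygenase of jasmonate synthesis, averaged 2.33 and 1.14, against 0.758 and 0.290. The lowest ratio of the 20 was that of AT5G45280, at 1.33 and 1.56 on the log2 scale.

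**Figure D4:**
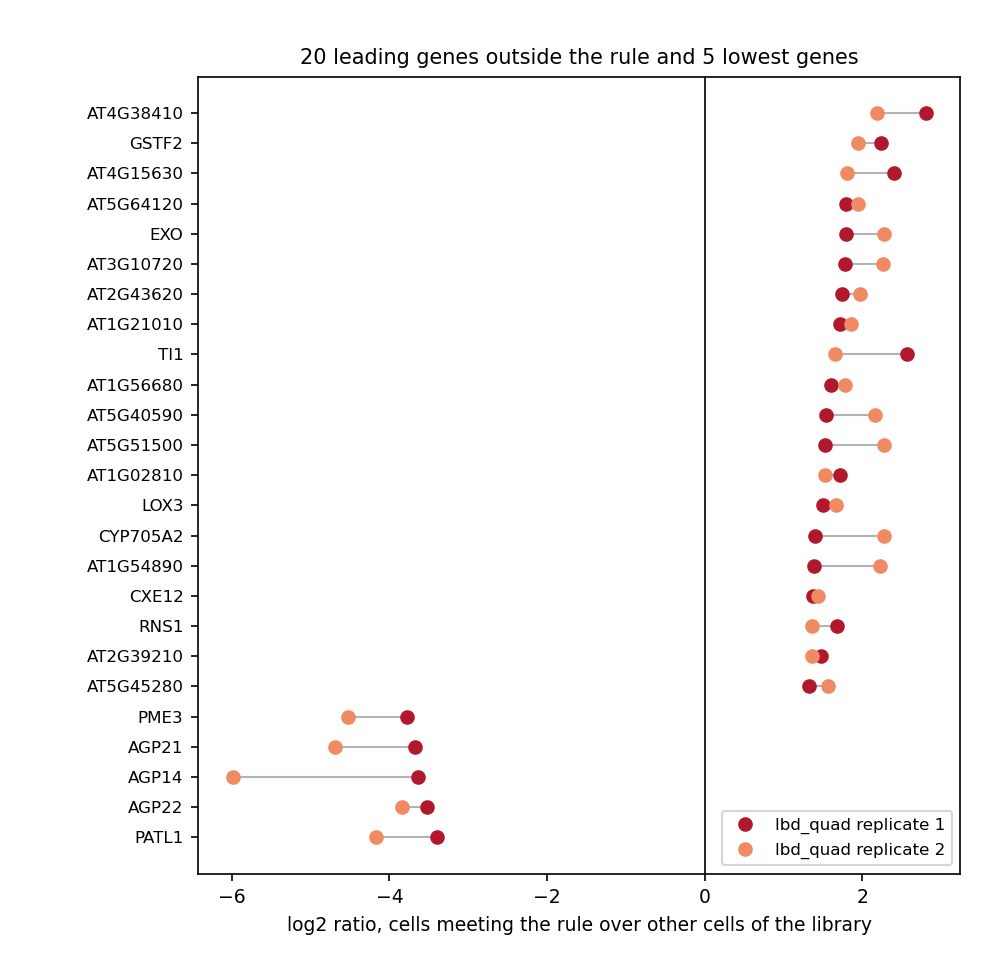
Log2 ratio of the mean level in cells meeting the rule over that in the other cells of the same library (x axis) for the 20 leading genes and the 5 genes with the lowest ratio among those found in at least 25% of the other cells of both libraries (y axis), with lbd_quad replicate 1 in dark red and replicate 2 in orange. The leading genes run from 1.33 to 2.80 in replicate 1, and PME3 and the AGP genes lie below -3.5 in both libraries.

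Within the main cluster, several leading genes differed little between selected and other cells, or went the other way, in at least 1 library. Among lbd_quad cells of the main cluster, AT3G10720 averaged 14.04 and 28.9 UMIs per 10000 in cells meeting the rule, against 7.55 and 27.5 in cells that did not. AT5G45280 averaged 12.9 and 28.9, against 9.99 and 35.6. AT2G43620 averaged 2.79 and 1.83, against 1.42 and 2.35, so the libraries went opposite ways. Among lbd_quad cells outside the main cluster, the log2 ratios of AT3G10720 were 2.09 and 2.58. Those of AT5G45280 were 1.87 and 2.07, and those of AT2G43620 were 1.29 and 3.44. That comparison was added after seeing the data. Within the main cluster, other genes still set the selected cells apart. AT4G38410 averaged 3.32 and 3.98, against 0.424 and 1.58, and GSTF2 averaged 4.02 and 1.09, against 0.892 and 0.290. TI1 averaged 3.53 and 0.864, against 0.639 and 0.371. Against other cells of the same cluster, 42 genes were at least 2-fold higher in both libraries and 110 lower.

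Among genes found in at least 25% of the other cells of both libraries, the 5 lowest ratios were those of a pectin methylesterase gene, 3 genes of arabinogalactan proteins, which are heavily glycosylated wall and surface proteins, and PATL1. PME3 averaged 0.173 and 0.193 UMIs per 10000 in the cells meeting the rule, against 3.66 and 6.65 in the other cells (log2 ratios -3.78 and -4.53). AGP14 averaged 0.423 and 0.0769, against 6.42 and 11.1. AGP21 averaged 0.392 and 0.200, against 6.18 and 7.62, and AGP22 averaged 0.234 and 0.0915, against 3.75 and 2.65. PATL1, which encodes a lipid-binding protein of membrane traffic at the cell plate, averaged 0.340 and 0.232, against 4.53 and 5.87. In lbd_quad cells of the main cluster that did not meet the rule, AGP14 averaged 0.304 and 0.411 and AGP21 0.335 and 0.309. AGP22 averaged 0.384 and 0.322 there, and PATL1 0.398 and 0.415. Low levels of these 4 genes were thus shared by the cluster. PME3 averaged 1.15 and 0.616 there, against 0.130 and 0.114 in the cells of the cluster meeting the rule.

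Gene families grouped by their annotation, a grouping made after the values were seen, did not move as wholes. By the measure used for their counts, 0.453% of all 20511 genes were higher and 2.84% lower. Of 61 genes annotated as pectin methylesterases or their inhibitors, 7 were at least 2-fold higher in both libraries and 7 lower. The higher ones were AT3G10720, AT1G02810, AT5G51500, AT3G47380, AT2G47550, PME44 and the rule gene ATPMEPCRB. Within the main cluster, the family summed to 46.9 and 78.5 UMIs per 10000 in lbd_quad cells meeting the rule. In the other lbd_quad cells of the cluster it summed to 38.2 and 88.15, so the libraries went opposite ways. Of 56 peroxidase genes, 2 were higher, AT5G64120 and the rule gene AT5G39580, and 14 lower, among them RCI3 at 0.117 and 0.171 UMIs per 10000 in the cells meeting the rule, against 7.00 and 5.68 in the other cells. Of 17 chitinase genes, 3 were higher and 2 lower. Within the main cluster, chitinase genes summed to 54.1 and 107.9 in lbd_quad cells meeting the rule, against 55.7 and 106.9 in the others. Of 48 arabinogalactan protein genes, 1 was higher and 13 lower: AGP31 averaged 15.8 and 19.5, against 7.27 and 4.35, while AGP13 averaged 0 and 0.0762, against 6.71 and 12.9. Within the main cluster, AGP31 averaged 18.2 and 22.3 in lbd_quad cells meeting the rule, against 15.5 and 23.8 in the others. Of 52 glutathione transferase genes, 2 were higher, GSTF2 and GSTF6, and 2 lower, GSTF9 and GSTU27. Of 57 WRKY transcription factor genes, 0 were higher and 0 lower.

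Lists of known genes gave few further members. Again, 0.453% of all genes were higher and 2.84% lower by the same measure. Of 5 measured lipid transfer protein genes outside the rule, 2 were higher, LTP5 and LTPG2, and 1 lower. LTP5 averaged 0.246 and 0.264 UMIs per 10000 in the cells meeting the rule, against 0.0612 and 0.0121 in the other cells. It was found in only 7.27% and 9.56% of the selected cells. LTPG5 averaged 0 and 0.0938, against 3.86 and 1.51. LTP1 was higher in replicate 1 alone, at 3.88 and 0, against 0.119 and 0.00265. Of 19 cutin and wax genes, 1 was at least 2-fold higher in both libraries, LTPG2, a relative of LTPG1 that also takes part in wax export. LTPG2 averaged 1.68 and 3.75 UMIs per 10000 in the cells meeting the rule, against 0.636 and 0.534 in the other cells. The whole list summed to 5.18 and 10.1, against 4.19 and 3.47. Its median ratio was 0.10 and 0.71 on the log2 scale, beside -0.07 and -0.09 over all genes. Within the main cluster, the list summed to 5.46 and 10.1 in lbd_quad cells meeting the rule, against 5.46 and 7.125 in the others. The cutin synthesis gene CYP86A4 was 2-fold higher in replicate 2 alone: it averaged 0 and 0.362, against 0.00448 and 0.0128. So were CYP86A2, GPAT4, ABCG12, ABCG32 and CER3 of this list, at log2 ratios of 1.975, 1.55, 1.725, 1.05 and 1.02 in replicate 2.

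Of 16 defence and calcium genes, 0 were at least 2-fold higher and 0 at least 2-fold lower in both libraries. Over all genes, 0.453% were higher and 2.84% lower by this measure. The list summed to 33.7 and 37.4 UMIs per 10000 in the cells meeting the rule, against 26.5 and 21.6 in the other cells. Within the main cluster, it summed to 41.0 and 41.6 in lbd_quad cells meeting the rule, against 50.25 and 36.4 in the others. CYP71A12, a cytochrome P450 gene of camalexin synthesis, went opposite ways, at 0.136 and 2.66, against 0.637 and 0.354. The calcium sensor gene CML37 had 8.39 and 10.8, against 4.76 and 3.35. Of 14 jasmonate genes, LOX3 was the single 2-fold one, and JAZ1, a repressor of jasmonate signalling, had 6.16 and 3.67, against 4.91 and 2.97. Of 13 wall remodelling genes, 2 were higher, AT5G64120 and TCH4, and 4 lower, PME3 among them. Of 4 suberin genes, 0 were higher and 1 lower. The lists of cell division, callose and plasmodesmata, and wounding and regeneration genes held 11, 8 and 5 measured genes, and 0 of them were 2-fold apart in either direction in both libraries. The 4 targeted LBD genes summed to 0.296 and 0.738, against 0.424 and 0.221.

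It was then asked whether the leading genes differed between the genotypes in cells that the rule did not take. The comparison is not independent of the choice, because the leading genes were picked in lbd_quad libraries alone. The cells outside the rule also keep lbd_quad cells just short of it and the other lbd_quad cells of the main cluster. Mean levels per library were compared between 2 lbd_quad and 2 WT libraries with limma, with Benjamini-Hochberg adjustment over all genes tested and a threshold of 0.05. Because the labels do not name separate plantings, these p-values measure only the spread between these libraries. In cells outside the rule, 5 of 9495 genes were higher in lbd_quad (0.0527%) and 19 lower (0.2%), and 740 had an unadjusted p under 0.05. Of the 20 leading genes, 0 passed the threshold in either direction, and the lowest limma adjusted p was 0.0579. At an unadjusted p under 0.05, 8 of them were higher and 1 lower. Their median log2 fold change was 0.61, beside 0.01 over all genes tested, with a range from -0.87 to 1.63. The number of genes called outside the rule, 24, was 169 without lbd_quad replicate 1, 173 without lbd_quad replicate 2, 265 without WT replicate 1 and 227 without WT replicate 2, and 0 without the filter on low levels, where 1514 had an unadjusted p under 0.05. In the main fit of these cells, 15 of the 20 had a positive log2 fold change and 5 a negative one. Directions were not counted over all genes tested, so neither split of the leading genes is read as a result.

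Over all cells, 11 of 9503 genes were higher in lbd_quad (0.116%) and 21 lower (0.221%), and 2 of the 20 leading genes were among the higher. This fit includes the cells meeting the rule, nearly all from lbd_quad, in which the leading genes were picked for being high. Their all-cell fold changes and p-values are thus raised in part by the choice and are given as a description. AT4G15630 averaged 0.881 and 0.861 UMIs per 10000 in lbd_quad replicates 1 and 2, against 0.180 and 0.157 in WT replicates 1 and 2. The log2 difference was 1.86 (SE 0.24), with a limma adjusted p of 0.0298. In cells outside the rule it averaged 0.667 and 0.759 in lbd_quad, against 0.180 and 0.157 in WT, which is 1.60 on the log2 scale (SE 0.25) with a limma adjusted p of 0.0579. AT2G43620 averaged 0.700 and 0.651 over all lbd_quad cells, against 0.131 and 0.129 over all WT cells, which is 1.75 on the log2 scale (SE 0.23) with a limma adjusted p of 0.0337. Outside the rule its value was 1.56 (SE 0.24), again with a limma adjusted p of 0.0579. The 2 fits share their libraries and most of their cells, so the values stand side by side and were not tested against each other. Both calls were lost without the filter on low levels, with a pseudocount of 1, with size factors and on library sums.

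Both genes thus lost their call without the cells meeting the rule, while their fold changes fell little. Outside the rule, the log2 difference of LOX3 was 1.52 (SE 0.38) with a limma adjusted p of 0.194, and that of AT5G40590 was 1.63 (SE 0.32) with a limma adjusted p of 0.105. Neither passed the threshold over all cells. The wall and growth genes of the leading set differed among themselves: AT3G10720 averaged 3.77 and 5.41 UMIs per 10000 in lbd_quad cells outside the rule, against 5.21 and 4.80 in WT cells outside it, and AT5G45280 averaged 5.10 and 9.69, against 5.95 and 11.3. For these genes the library values of the genotypes overlapped. AT1G02810 averaged 1.02 and 1.09, against 0.548 and 0.602, and EXO 0.673 and 0.511, against 0.465 and 0.208, without overlap, and neither passed the threshold (limma adjusted p 0.400 and 0.702). AT2G39210, a transporter family gene, lay lower in both lbd_quad libraries at 0.146 and 0.165, against 0.381 and 0.353 in WT, with a limma adjusted p of 0.236.

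**Figure D5:**
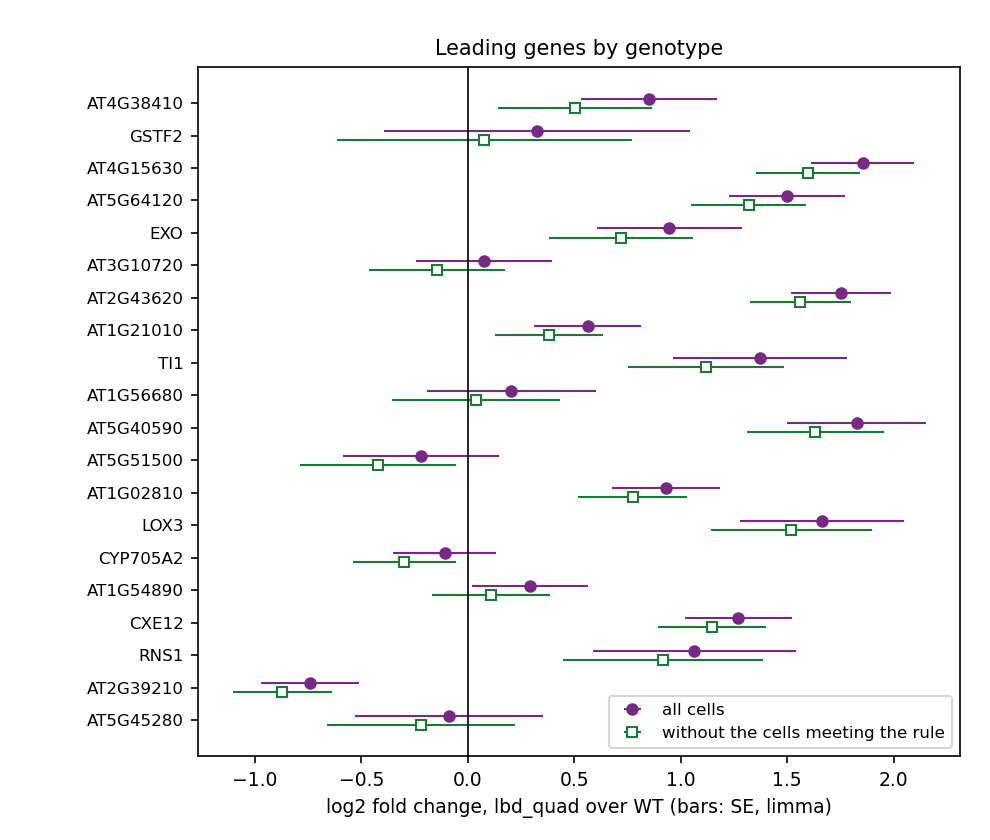
Log2 fold change of lbd_quad over WT (x axis; bars are standard errors from limma, n = 2 libraries each) of the 20 leading genes (y axis), over all cells (filled circles) and without the cells meeting the rule (open squares). AT4G15630 and AT2G43620 pass the threshold over all cells at 1.86 and 1.75, and without the selected cells 0 of 20 pass and the values run from -0.87 to 1.63. The all-cell fit includes the selected cells, in which the leading genes were picked for being high.

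Of the 32 genes called over all cells, 8 were not called once the cells meeting the rule were left out. These were ADF11, EXT4, AT2G43620, AT3G04330, AT3G16370, AT4G15630, AT5G01870 and TCH4, all named here because they are the whole set. AT5G01870, a lipid transfer family gene, had a log2 fold change of 1.68 over all cells (limma adjusted p 0.0464). It averaged 2.08 and 2.03 UMIs per 10000 in the cells meeting the rule, against 0.156 and 0.0779 in the other lbd_quad cells, and was found in 9.09% and 19.1% of the selected cells. Without these cells its mean level was under the minimum of 0.1 for a test. EXT4, which encodes the wall protein extensin 4, averaged 4.12 and 2.66 in the selected cells, against 0.414 and 0.728, with a log2 fold change between genotypes of 2.10 over all cells (limma adjusted p 0.0217) and 1.82 outside the rule (limma adjusted p 0.0634). TCH4 had log2 fold changes of 2.03 (limma adjusted p 0.0472) and 1.90 (limma adjusted p 0.0579).

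The genes that rose most in lbd_quad cells outside the rule were in part without a UMI in the selected cells. GL22, a germin-like protein gene, TED6, a gene of xylem differentiation, and PP2-A1, a phloem lectin gene, rose by log2 fold changes of 2.58, 2.38 and 1.96 (limma adjusted p 0.0196, 0.0228 and 0.0221). They were at 0 UMIs in the cells meeting the rule of both lbd_quad libraries. TED6 was found in only 0.632% and 0.657% of the other lbd_quad cells, and PP2-A1 in 1.77% and 1.93%. With 55 and 136 selected cells, a value of 0 for these 2 genes therefore says little. AT3G10930 rose by 2.31 (limma adjusted p 0.0426) and was high in the selected cells as well, at 11.0 and 17.9 UMIs per 10000 against 4.70 and 5.01 in the other lbd_quad cells. The largest falls outside the rule, of AGP30, AT3G06460 and AT4G15160, had log2 fold changes of -4.94, -4.60 and -3.69 (limma adjusted p 0.0228, 0.0180 and 0.0183), and the 3 genes averaged at most 0.124 UMIs per 10000 in the selected cells. Each of these 7 calls was lost without the filter on low levels, with size factors and on library sums, that of PP2-A1 also in cells of at least 2000 UMIs, and that of AT3G10930 also without the main cluster.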

How the data were processed

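Protoplasts were sequenced in 3' droplet libraries of chemistry version 2, per the labels' protocols. Cell Ranger 7.0.1 and Seurat are listed in the submitters' processing notes. The genome build and the filters on cells are not given in the sources used here, so no coordinates are printed. The authors deposited a matrix of natural log values. Values were 1 added to a gene's UMIs per 10000 UMIs of its cell, log-transformed, and the exponential gave back whole UMIs, within 0.01, for 100% of values. No cells were filtered out, and doublet calls were used only in an alternative. A further 3315 columns could be assigned to no sample and were left out. The plan allowed for raw counts, and count models were set aside because the deposit is on a log scale.

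Symbols come from the RefSeq table of Arabidopsis. The rule cells, the gene lists and the marker lists were chosen with earlier results of these data known. Levels are means over cells of UMIs per 10000. Genotypes were compared with limma 3.58.1 in R 4.3.3 on log2(level + 0.1), with a mean-dependent prior, for genes with a mean of at least 0.1 over the 4 libraries, without the rule genes. The test was checked on simulated data. Clustering used scanpy 1.11.5 on the 2000 most variable genes without the rule genes, with 40 principal components, 15 neighbours and Leiden resolution 1. The named genes are the 6 rule genes, the 20 highest and 5 lowest ratios among genes found in at least 25% of the higher side, list members at least 2-fold apart in both libraries and found in at least 10% of the higher side, and in the genotype tests the 3 largest rises and falls with the leading and list genes past the threshold. Other genes are named after their values were seen: the defining markers of a cell type, families by annotation, and AT5G01870, EXT4, CML37, CYP71A12, LTP5, LTPG5, JAZ1 and CYP86A4. CYP86A2, GPAT4, ABCG12, ABCG32, CER3 and LTP1 were named in the same way. Alternatives were the number of rule genes, depth, pseudocount, filter, scaling, replicate block and each library left out. Depth limits precision: cells of 2000 UMIs or fewer often lack a UMI of a gene at 1 UMI per 10000. How reads shared by members of gene families were counted is not given in the sources used here, so GRP5 and the lipid transfer, peroxidase and pectin methylesterase genes are less certain.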

Additional observations from a re-analysis of the deposited data

How the results depend on the processing

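The difference in the share of cells meeting the rule, 5.58 percentage points, stayed above 0 in every alternative run. It was 12.5 with at least 3 of the 6 genes, 2.63 with at least 5, 2.32 after thinning to 2000 UMIs, 6.98 among cells of at least 2000 UMIs, 2.74 with at least 2 UMIs of each gene, 3.84 without GRP5, 3.43 without LTP2, and 4.69 to 6.46 with a library left out. The main cluster held 74.6% of the cells, 67.4% at resolution 0.5 and 57.5% at resolution 2. The 93 higher and 583 lower genes became 25 and 85 with a pseudocount of 1, and 42 and 110 against other cells of the same cluster, a comparison added after seeing the data.

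Genotype calls depended strongly on the settings. Outside the rule, 24 genes became 0 without the filter, 5 with a pseudocount of 1, 0 with median-of-ratios size factors, 0 on library sums, 329 with the replicate block, 169 and 173 without lbd_quad replicates 1 and 2, 265 and 227 without WT replicates 1 and 2, and 46 without the main cluster, the last added after seeing the data. Over all cells, 32 genes became 0 without the filter, 1 with a pseudocount of 1, 11 with size factors, 0 on library sums, 467 with the replicate block, 162 and 171 without lbd_quad replicates 1 and 2, and 247 and 216 without WT replicates 1 and 2. The counts of 0 are from limma, which gave 1514, 751 and 629 genes at an unadjusted p under 0.05 outside the rule and, without the filter and on sums, 1550 and 706 over all cells. With a library left out, the lone library is assumed to vary like the other genotype. Libraries of a number deviated together (correlation 0.514 over all cells, 0.52 outside the rule), but with 2 pairs they share only a number. Of 218 alternative values for 17 genotype results of named genes, 152 kept their side of the threshold, 66 lost it and 0 reversed. Of 217 alternative ratios for 31 named genes, 116 stayed within 1 SD of the main value, 101 moved further and 0 reversed. These ratios are means of the 2 lbd_quad libraries, and single libraries did change sign. AT2G43620 was at -0.35 in replicate 2 against other cells of the same cluster. LOX3 was at -0.17 in replicate 1 without the main cluster. A test between genotypes within the cells meeting the rule was not run, since each WT library held 1 such cell. The causes of these changes were not tested.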

Other observations

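Some of the 93 genes that were at least 2-fold higher in the cells meeting the rule fall outside the groups described above. The values are descriptions of chosen cells, and the genes were picked after their values were seen. PDF1, a gene of the outer cell layer of shoots, averaged 0.229 and 0.308 UMIs per 10000 in the cells meeting the rule of lbd_quad replicates 1 and 2, against 0.0243 and 0.0356 in the other cells, and was found in 3.64% and 10.3% of the selected cells. The fatty acid desaturase gene ADS4 averaged 0.342 and 0.816, against 0.0178 and 0.0224. The GDSL lipase family gene AT1G29670 averaged 0.161 and 1.35, against 0.0198 and 0.0725. These genes were higher in both libraries, though each rests on a minority of the cells.

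Transport and hormone genes were also among them. The phosphate transporter gene PHT1;4 averaged 0.778 and 1.34 UMIs per 10000 in the cells meeting the rule, against 0.294 and 0.333 in the other lbd_quad cells, and the amino acid transporter gene LHT1 averaged 2.06 and 2.06, against 0.947 and 0.967. ACS7, an enzyme of ethylene synthesis, averaged 0.282 and 0.447, against 0.0682 and 0.170. NAC042, which encodes a transcription factor, averaged 0.220 and 0.630, against 0.0336 and 0.0617, and was found in 7.27% and 33.1% of the selected cells.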
